A study of Mus musculus with 12 samples.

Results

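The genes described here are 10 chemokines measured in antigen-stimulated mouse lymph node cells: Xcl1, Ccl1, Ccl3, Ccl4, Ccl5, Ccl9, Ccl22, Cxcl9, Cxcl10 and Cxcl16. They were taken by gene symbol and are 10 of the 18193 genes that the array names by 1 symbol, and 13 of its 45037 probe sets. Chemokines are small secreted proteins that attract leukocytes through G protein-coupled receptors, and their letters (XC, CC, CXC) describe the spacing of cysteines near the start of the mature protein. T cells that have seen antigen release some of them, such as Ccl3, Ccl4 and Xcl1, and so call dendritic cells and other T cells to the site. Others, such as Cxcl9 and Cxcl10, are made by many cell types that respond to interferon gamma, and attract T cells that carry the receptor Cxcr3.

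The cells came from lymph nodes of P14-TCR mice, whose transgenic T cell receptor recognises the viral peptide gp33-41 on MHC class I. Both genotypes carried this receptor: 3 mice were wild type and 3 were PKD2 null, lacking protein kinase D2, a serine/threonine kinase activated downstream of the antigen receptor. Cells of each mouse were kept in culture for 4 h without peptide or with gp33-41 at 62.5 ng/ml, and RNA of each culture was put on 1 Affymetrix array, which gave 4 groups of 3 arrays. Neither the making of the null allele nor the age of the mice is given in the labels used here. The labels name no sorting of the cells, so RNA of B cells, dendritic cells and other lymph node cells was measured with that of T cells. In such bulk samples, fewer cells of a type and less RNA per cell cannot be told apart.

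All values are log2 signals, so a difference of 1 is a doubling. Array medians lay between 4.67 and 4.72, all values between 2.43 and 15.1, and 3 arrays a group set the precision. A gene was called where limma's moderated test, adjusted over all 45037 probe sets, gave p under 0.05, and n is 3 arrays a group. Prkd2, the gene of PKD2, averaged 10.17 without and 8.33 with peptide in wild-type cells and 6.00 and 5.48 in null cells, so its signal followed the labels. The labels do not say where its probes lie relative to the null allele. Mean signals of CD8 T cell markers (Cd3d, Cd3e, Cd3g, Cd8a, Cd8b1) were 11.3 to 11.4 without and 10.6 to 10.8 with peptide on wild-type arrays. On null arrays they were 11.0 to 11.5 without and 10.7 to 11.2 with peptide. B cell markers (9 of 10 measured) averaged 8.94 to 9.01 without and 8.38 to 8.56 with peptide on wild-type arrays, and 9.38 to 10.1 and 8.83 to 9.54 on null arrays. With peptide 2 of the 9 were called, both higher in null cells (Cd79b by 1.19 and Ighm by 1.45). Salivary gland markers (4 of 5 measured), which mark another tissue, averaged 7.34 to 10.4 on wild-type arrays and 5.04 to 7.00 on null arrays. With peptide 1 of the 4 was called, Dcpp3, with a difference of -6.15 in null against wild-type cells. Bpifa2 was not called and reached 11.6 in null mouse 2. The part of these markers in the genotype differences below was not tested.

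Promoter sequences are shown for Xcl1, Ccl3, Ccl9, Cxcl9 and Cxcl10, because their signals changed most or differed between the genotypes below. Of the 10 chemokines, 7 matched the RefSeq promoter table of mouse build GRCm38.p6, and Ccl4, Ccl5 and Cxcl16 did not. Each sequence is the 250 bases before the gene's start, read 5′ to 3′ on the minus strand, on which all 5 genes lie. Capitals mark matches on either strand to 7 motifs: 6 of factors that act in T cell activation or interferon responses, and the TATA box.
Xcl1 (chr1:164935523-164935772): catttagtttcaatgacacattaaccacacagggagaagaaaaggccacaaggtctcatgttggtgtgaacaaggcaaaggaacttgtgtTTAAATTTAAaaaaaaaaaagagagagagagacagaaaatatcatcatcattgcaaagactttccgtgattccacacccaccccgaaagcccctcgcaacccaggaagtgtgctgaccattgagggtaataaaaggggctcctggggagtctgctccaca
Ccl3 (chr11:83649379-83649628): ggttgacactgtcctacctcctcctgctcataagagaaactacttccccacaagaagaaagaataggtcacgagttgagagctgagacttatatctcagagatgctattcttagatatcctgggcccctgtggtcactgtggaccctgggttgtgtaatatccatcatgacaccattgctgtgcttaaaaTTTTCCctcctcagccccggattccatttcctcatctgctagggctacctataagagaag
Ccl9 (chr11:83578637-83578886): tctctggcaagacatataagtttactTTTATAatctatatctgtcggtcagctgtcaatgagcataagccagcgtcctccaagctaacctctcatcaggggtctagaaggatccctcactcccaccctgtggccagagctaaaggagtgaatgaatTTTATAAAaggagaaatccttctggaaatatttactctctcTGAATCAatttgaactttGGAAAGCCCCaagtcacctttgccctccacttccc
Cxcl9 (chr5:92328080-92328329): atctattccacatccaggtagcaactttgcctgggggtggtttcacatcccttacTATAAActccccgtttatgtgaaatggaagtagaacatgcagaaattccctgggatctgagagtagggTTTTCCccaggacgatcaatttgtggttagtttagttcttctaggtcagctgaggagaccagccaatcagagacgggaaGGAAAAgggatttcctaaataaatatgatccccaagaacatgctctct
Cxcl10 (chr5:92348890-92349139): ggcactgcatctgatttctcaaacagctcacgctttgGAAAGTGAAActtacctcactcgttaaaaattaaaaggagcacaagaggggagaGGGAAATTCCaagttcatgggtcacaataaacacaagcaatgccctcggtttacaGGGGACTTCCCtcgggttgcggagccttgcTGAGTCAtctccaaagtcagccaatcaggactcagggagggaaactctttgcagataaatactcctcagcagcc

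The motifs searched on both strands were the NFAT core GGAAAA, the kappaB site, the AP-1 site TGANTCA, the GAS element TTCNNNGAA, the ISRE core GAAANNGAAA, the TATA box TATAAA and the MEF2 site. The Cxcl10 window held the ISRE core at 213 to 204 bases before the start, 3 kappaB matches and an AP-1 site at 74 to 68 bases. The kappaB matches lay at 159 to 150, 104 to 95 and 103 to 94 bases, and the last 2 overlap. The Ccl9 window held a kappaB match at 35 to 26 bases and an AP-1 site at 53 to 47 bases. It also held TATA boxes at 224 to 219, 94 to 89 and 92 to 87 bases, and the last 2 overlap. The Ccl3 window held 1 NFAT core at 60 to 55 bases and the Cxcl9 window held NFAT cores at 127 to 122 and 48 to 43 bases, with a TATA box at 195 to 190. The Xcl1 window held 1 MEF2 match at 160 to 151 bases. Of 32851 promoter windows of this length, 20.4% held an NFAT core, 7.25% a kappaB site, 6.75% an AP-1 site, 7.02% a GAS element, 2.98% an ISRE core, 12.4% a TATA box and 2.92% a MEF2 site. Of the 7 chemokine windows, 3 held an NFAT core, 3 a kappaB site, 2 an AP-1 site, 0 a GAS element, 1 an ISRE core, 2 a TATA box and 1 a MEF2 site. A match describes letters and does not show that a factor binds there.

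The first comparison asked which chemokines change in wild-type cells within 4 h of antigen. Of the 10, 8 rose and 0 fell: Xcl1, Ccl3, Ccl4, Cxcl10, Cxcl9, Ccl9, Ccl22 and Ccl1, in the order of their differences. Over all probe sets 12.8% rose and 16.2% fell. The median difference of the 10 genes was 2.28, against 0.0084 over all probe sets. Ccl5 and Cxcl16 were not called.

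Xcl1, or lymphotactin, is a ligand of Xcr1 on cross-presenting dendritic cells. Without peptide its signal in wild-type mice 1, 2 and 3 was 4.71, 5.37 and 4.91, close to the array medians. With peptide it was 14.25, 14.18 and 14.11, not far below the highest value of any probe set. The groups were far apart, and Xcl1 rose by 9.19 (SE 0.222, adjusted p = 4.1e-10), or 582-fold as measured. Whether the signal without peptide was above background is not known, so this fold rests on a baseline near the medians. In null cells it went from 5.20, 5.47 and 4.50 to 13.74, 14.12 and 13.80, a rise of 8.83 (SE 0.222, adjusted p = 6.6e-10).

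Ccl3 and Ccl4, the macrophage inflammatory proteins 1 alpha and 1 beta, are close relatives and lie next to each other on chromosome 11. Wild-type Ccl3 was 6.22, 4.88 and 5.59 without peptide and 13.00, 12.57 and 12.54 with it. That was a rise of 7.14 (SE 0.301, adjusted p = 5.5e-09), or 141-fold. Wild-type Ccl4 was 7.72, 6.89 and 7.28 without peptide and 13.84, 13.56 and 13.60 with it. It rose by 6.37 (SE 0.239, adjusted p = 2.6e-09), or 82.6-fold. For both genes every array with peptide was higher than every array without.

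In null cells Ccl3 and Ccl4 rose as well, Ccl3 to a lower level than in wild-type cells. Null Ccl3 was 5.57, 6.14 and 5.40 without peptide and 10.83, 11.28 and 10.58 with it, a rise of 5.20 (SE 0.301, adjusted p = 1.2e-07), or 36.7-fold. Null Ccl4 was 6.95, 7.78 and 6.79 without peptide and 12.70, 12.78 and 12.67 with it, a rise of 5.55 (SE 0.239, adjusted p = 1.5e-08), or 46.7-fold. The 3 null mice gave Ccl3 responses within a narrow range (5.27, 5.15 and 5.18), all below the wild-type responses of 6.78, 7.69 and 6.95.

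Ccl5, known as RANTES, attracts T cells and monocytes and is stored by memory and effector CD8 T cells. It lies in the same cluster on chromosome 11. Its wild-type signal was 11.49, 10.53 and 10.68 without peptide and 10.72, 10.65 and 10.23 with it, so the groups overlapped. The difference was -0.37 (SE 0.296, adjusted p = 0.44). Null Ccl5 was 10.82, 11.59 and 10.81 without peptide and 10.30, 11.06 and 10.20 with it. Each null mouse gave a lower value with peptide, with differences of -0.52, -0.52 and -0.61. The unpaired difference of -0.55 was not called (adjusted p = 0.23), whereas with mouse as a replicate block it was (adjusted p = 0.016).

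Ccl9, a ligand of Ccr1 known as MIP-1 gamma, lies beside Ccl5 in the gene order of chromosome 11. In wild-type mice it was 5.97, 4.85 and 5.70 without peptide and 7.35, 7.00 and 7.62 with it. It rose by 1.82 (SE 0.257, adjusted p = 1.1e-04), or 3.52-fold, and the groups did not overlap. In null mice it was 5.88, 6.01 and 5.78 without peptide and 5.93, 6.27 and 5.59 with it. The null groups overlapped and the difference was 0.039 (95% interval -0.52 to 0.60, adjusted p = 0.95). A second Ccl9 probe set gave 1.69 (adjusted p = 6.4e-04) in wild-type and -0.051 (adjusted p = 0.94) in null cells.

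The cluster on chromosome 11 runs Ccl5, Ccl9, Ccl6, Ccl3, Ccl4 among protein-coding genes, and its members did not all change. Ccl6, between Ccl9 and Ccl3, had differences of 0.32 in wild-type (adjusted p = 0.42) and -0.31 in null cells (adjusted p = 0.46). Wfdc17, the gene after Ccl4, had 0.21 (adjusted p = 0.40) and -0.014 (adjusted p = 0.97).

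Ccl22, a ligand of Ccr4 made by dendritic cells and activated lymphocytes, was 7.42, 6.48 and 7.39 without peptide and 8.51, 8.27 and 8.74 with it in wild-type mice. It rose by 1.41 (SE 0.251, adjusted p = 7.2e-04), or 2.66-fold. In null mice it was 7.41, 7.73 and 7.72 without peptide and 7.97, 8.69 and 7.99 with it. The 3 null arrays with peptide were all above those without, and the difference of 0.60 was called with the replicate block (adjusted p = 0.014) and not without it (adjusted p = 0.12).

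Ccl1, a ligand of Ccr8, was measured near the bottom of the scale. In wild-type mice it was 4.11, 4.22 and 3.93 without peptide and 4.36, 4.81 and 4.51 with it, mostly below the array medians. It rose by 0.47 (SE 0.130, adjusted p = 0.014), or 1.39-fold. The call rests on single arrays: without wild-type mouse 3's array without peptide it was 0.40 (adjusted p = 0.061), and without mouse 2's array with peptide 0.35 (adjusted p = 0.065). In null mice Ccl1 was 4.10, 4.14 and 4.12 without peptide and 4.02, 4.41 and 4.30 with it, which overlapped (difference 0.12, adjusted p = 0.61).

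Cxcl9 and Cxcl10, the Cxcr3 ligands known as MIG and IP-10, rose in both genotypes. Wild-type Cxcl10 was 7.03, 6.19 and 6.40 without peptide and 11.54, 11.42 and 11.63 with it. It rose by 4.99 (SE 0.518, adjusted p = 8e-06), or 31.8-fold. Null Cxcl10 was 6.24, 6.92 and 5.16 without peptide and 9.81, 11.24 and 8.86 with it, so the null arrays spread widely and mouse 2 was the highest in both. The null rise was 3.86 (SE 0.518, adjusted p = 1e-04), or 14.5-fold.

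Wild-type Cxcl9 was 5.12, 4.85 and 4.41 without peptide and 7.72, 7.07 and 7.82 with it. It rose by 2.75 (SE 0.477, adjusted p = 5.9e-04), or 6.71-fold. Null Cxcl9 was 4.23, 4.98 and 4.33 without peptide and 6.12, 8.04 and 5.68 with it, and the rise was 2.10 (SE 0.477, adjusted p = 0.0051). Null mouse 2 was again the highest, and with peptide it was above all 3 wild-type arrays. A second Cxcl9 probe set stayed between 3.35 and 3.88 on all 12 arrays, below the array medians, and was called in 0 comparisons. Art3, which lies between the 2 genes on chromosome 5, was not called in either genotype (0.23 and 0.25, adjusted p = 0.089 and 0.072), nor was Cxcl11, the other Cxcr3 ligand (0.45 and 0.30, adjusted p = 0.19 and 0.43).

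Cxcl16, a membrane-bound chemokine and the ligand of Cxcr6, did not pass the test in either genotype. It was 7.25, 6.68 and 7.21 without peptide and 6.98, 7.27 and 6.89 with it in wild-type mice. The difference was -0.0020 (95% interval -0.32 to 0.32, adjusted p = 1). In null mice it was 7.35, 7.48 and 7.20 without peptide and 6.99, 7.05 and 7.05 with it. The null groups did not overlap, and the difference was -0.31 (adjusted p = 0.17). A second Cxcl16 probe set, whose name marks that it can bind other transcripts, gave 0.14 in wild-type (adjusted p = 0.71) and -0.58 in null cells (adjusted p = 0.073).

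**Figure D1:**
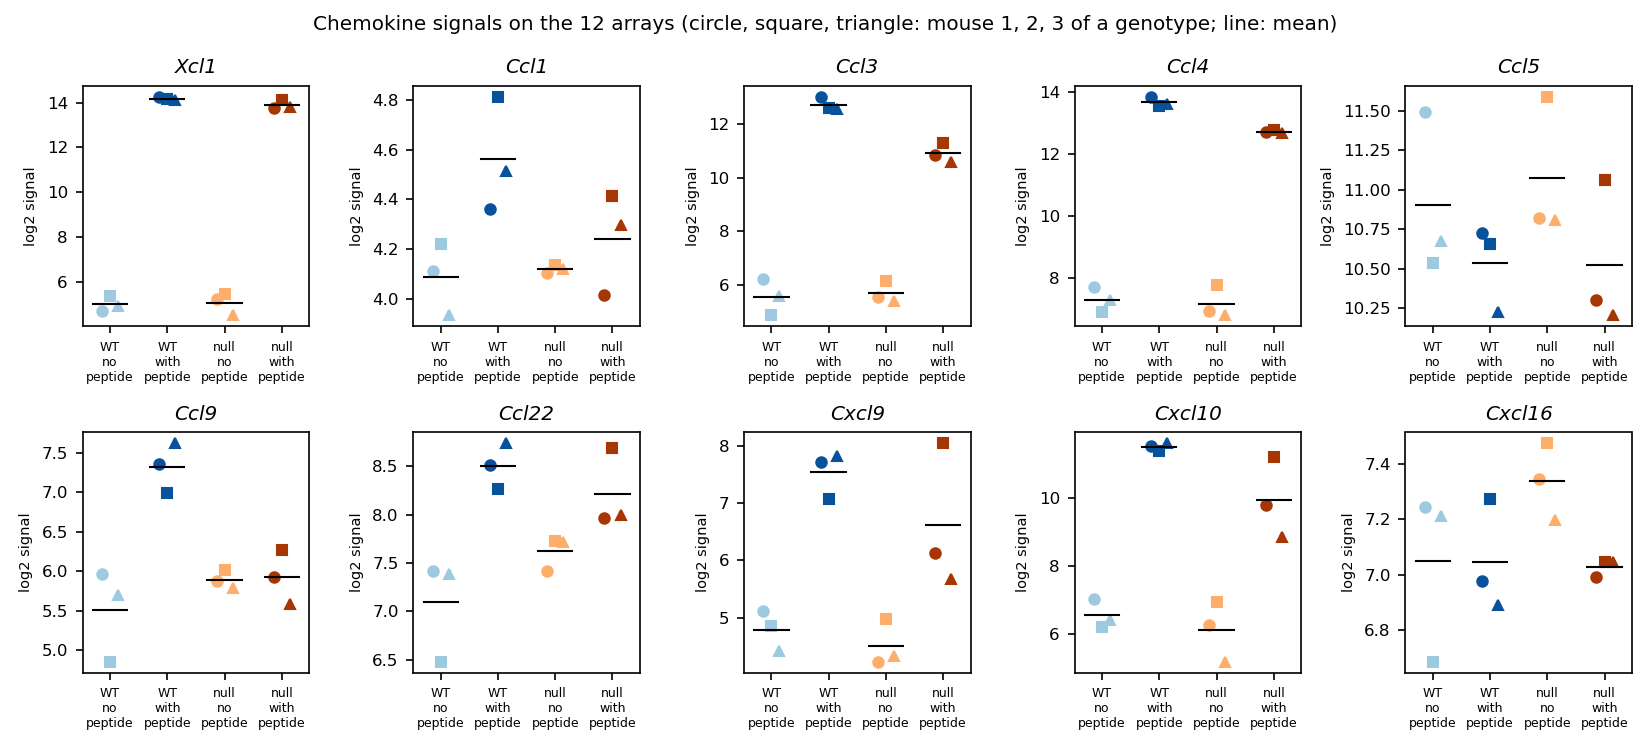
Log2 signal (vertical axis, a scale of its own in each panel) of the 10 chemokines on the 12 arrays, by genotype and peptide. Points are arrays, with a shape for each mouse, and lines are group means. Xcl1, Ccl3, Ccl4 and Cxcl10 with peptide are far above the arrays without peptide in both genotypes, whereas for Ccl9 the wild-type arrays with peptide stand apart, between 7.00 and 7.62.

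In null cells, then, 5 of the 10 chemokines rose and 0 fell (Xcl1, Ccl3, Ccl4, Cxcl9 and Cxcl10), where 11% of all probe sets rose and 13.8% fell. The median difference of the 10 was 1.35, against -0.0056 over all probe sets. With mouse as a replicate block 8 rose in wild-type cells, where 14.1% of probe sets rose and 18.3% fell. With that block 6 rose and 1 fell in null cells (Ccl22 besides the 5 above, and Ccl5), where 12.4% of probe sets rose and 16.2% fell. Being called in wild-type and not in null cells does not show a difference between them, which is tested below.

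**Figure D2:**
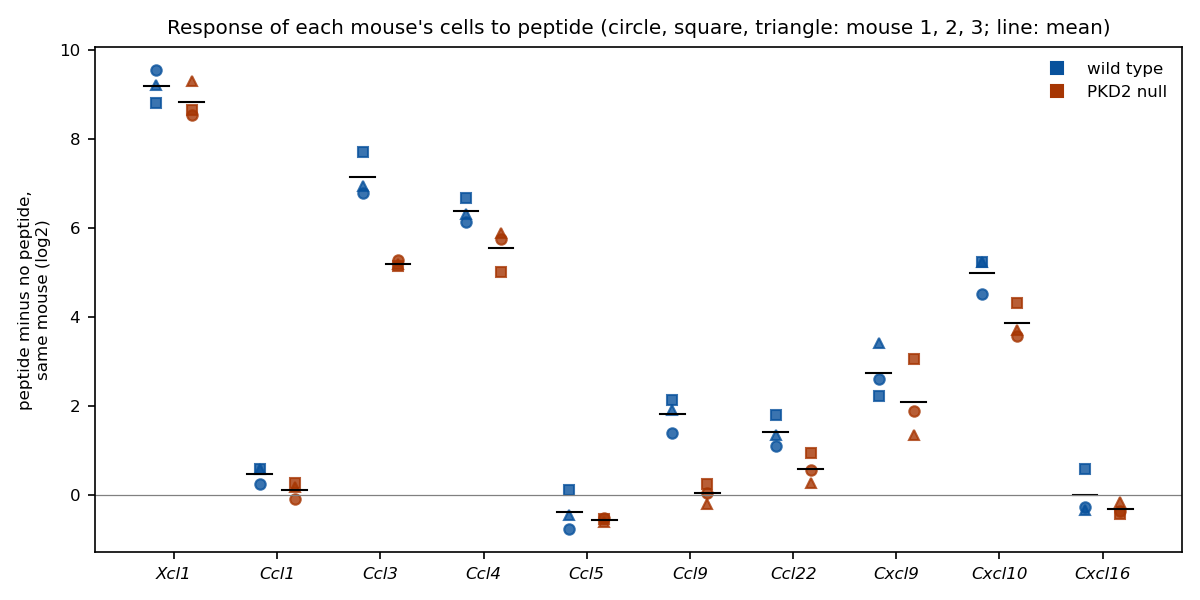
Difference between the array with peptide and the array without peptide of the same mouse (log2, vertical axis) for each chemokine, in wild-type (blue) and PKD2 null (brown) mice. Points are mice and lines are means. The 3 null mice lie below the 3 wild-type mice for Ccl3, Ccl4, Ccl9, Ccl22 and Cxcl10, as for 9% of all probe sets, and the groups overlap for Xcl1, Ccl1, Cxcl9, Ccl5 and Cxcl16.

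The next comparison set null against wild-type cells in each culture condition. Without peptide 0 of the 10 chemokines were called by limma, 0 had an unadjusted p under 0.05 (4014 of all probe sets had), and 0.0377% of all probe sets were called. The differences ran from -0.43 for Cxcl10 to 0.53 for Ccl22 (adjusted p = 0.58). With peptide all 10 differences were below 0, Ccl5 and Cxcl16 only just, as were 54.3% of all probe sets and 73.4% of the 1720 whose peptide difference, averaged over the genotypes, was 1 or more. Of the 10, 2 were called, both lower in null cells: Ccl3 and Ccl9. Of all probe sets 0.38% were called lower and 0.799% higher. The median difference of the 10 chemokines was -0.62, against -0.017 over all probe sets.

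With peptide, null Ccl3 was lower than wild-type Ccl3 by 1.80 on the log2 scale (SE 0.301, 95% interval of the difference -2.46 to -1.15, adjusted p = 0.018), which is 3.49-fold. Its null values of 10.83, 11.28 and 10.58 were all below the lowest wild-type value of 12.54. Null Ccl9 differed by -1.39 (SE 0.257, 95% interval -1.95 to -0.83, adjusted p = 0.028), which is 2.63-fold, and its second probe set by -1.45 (adjusted p = 0.039). The highest null Ccl9 value, 6.27, was below the lowest wild-type value, 7.00. Both calls rest on few arrays. Neither was called without wild-type array 3, null array 1 or null array 3 with peptide, with adjusted p between 0.053 and 0.11. Without wild-type array 2 with peptide, Ccl9 was called (adjusted p = 0.046) and Ccl3 was not (adjusted p = 0.053). In a fit of these 2 groups alone Ccl9 was not called (adjusted p = 0.060) and Ccl4 was (adjusted p = 0.037).

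The other differences with peptide did not pass the adjustment over all probe sets. Ccl4 differed by -0.95 (SE 0.239, 95% interval -1.47 to -0.43, adjusted p = 0.085), and its null values of 12.67 to 12.78 were all below the wild-type values of 13.56 to 13.84. Cxcl10 differed by -1.56 (SE 0.518, 95% interval -2.69 to -0.44, adjusted p = 0.18), without overlap of the groups. Ccl3, Ccl4, Ccl9 and Cxcl10 are the 4 of 10 whose null arrays were all below all wild-type arrays, as was the case for 11% of all probe sets. Cxcl9 differed by -0.92 (adjusted p = 0.38), Ccl1 by -0.32 (adjusted p = 0.26) and Ccl22 by -0.29 (adjusted p = 0.63).

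Xcl1, the chemokine with the largest measured difference in log2 signal, differed by -0.29 with peptide (95% interval -0.78 to 0.19, adjusted p = 0.57). Its highest null value, 14.12, was above the lowest wild-type value, 14.11. These signals lie not far below the highest value of any probe set, 15.1. Whether the array can resolve a genotype difference at that level was not tested. Ccl5 (-0.013) and Cxcl16 (-0.018) had differences near 0, with 95% intervals of -0.66 to 0.63 and -0.34 to 0.30.

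**Figure D3:**
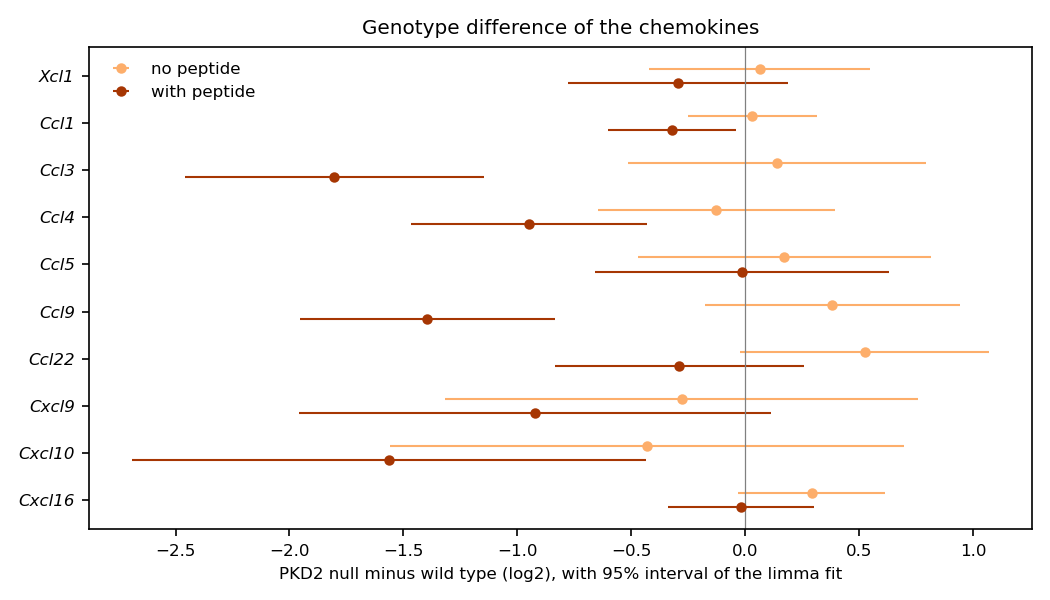
PKD2 null minus wild-type difference (log2, horizontal axis) of each chemokine without peptide (light) and with peptide (dark); bars are 95% intervals of the limma fit. Each gene is shown by its probe set of highest mean signal. Without peptide every interval shown reaches 0. With peptide the intervals of Ccl1, Ccl3, Ccl4, Ccl9 and Cxcl10 lie below 0, of which Ccl3 and Ccl9 passed the adjustment.

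On null arrays with peptide, mouse 2 had the highest value of the 3 null mice for 9 of the 10 chemokines, Cxcl16 being the exception. The share of all probe sets with this mouse highest was not counted, so the pattern is not read as particular to chemokines. Its B cell markers (9.54 with peptide, against 8.83 to 8.90 in the other null mice) and its myeloid and dendritic cell markers (6.85, against 6.34 and 6.42) were the highest of the null arrays with peptide too. So were the means of its NK cell (6.90, against 6.33 and 6.31) and granulocyte markers (6.21, against 5.72 and 5.06). Not every gene of these 2 lists followed. Prf1 of the NK cell list was lowest in mouse 2 (8.85, against 9.25 and 9.46). Camp of the granulocyte list was 4.65 in mouse 2 and 4.78 in mouse 1. Mouse 2 was also highest for the means of the salivary gland (7.00, against 6.18 and 5.04) and CD4 T cell markers (6.96, against 6.89 and 6.92). The same held for stroma and endothelium markers (4.45, against 4.41 and 4.43). Icos of the CD4 T cell list was lowest in mouse 2 (10.57, against 11.21 and 11.32). Of the marker lists, only the CD8 T cell list had its lowest mean in mouse 2 (10.7, against 11.2 in both others). The part of these cells and tissues in its chemokine values was not tested. Both arrays of this mouse were then left out. It was singled out by these same chemokine values, so lower null means and a smaller spread follow from the choice, and the calls are no further support for a difference. Without it the differences with peptide were -2.00 for Ccl3, -1.56 for Ccl9, -2.20 for Cxcl10, -1.64 for Cxcl9 and -0.98 for Ccl4, and limma called these 5 lower in null cells, where 0.806% of probe sets were.

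The last comparison asked whether the response to peptide itself differed between the genotypes. All 10 differences of the peptide effects were below 0, the null response being smaller for the 8 chemokines that rose in wild-type cells, where 51.7% of all probe sets were below 0. In the fit without pairing 0 of the 10 were called, 4 had an unadjusted p under 0.05 (3209 of all 45037 probe sets had), and 0.00222% of all probe sets were called. With mouse as a replicate block 2 of the 10 were called, Ccl3 and Ccl9, where 0.0955% of all probe sets were.

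The Ccl3 response was smaller in null cells (difference -1.94, adjusted p = 0.034 with the replicate block and 0.41 without). The Ccl9 response differed by -1.78 (adjusted p = 0.034 with the replicate block and 0.38 without), and the second Ccl9 probe set by -1.74 (adjusted p = 0.11 with the block). Ccl9 responses were 1.39, 2.14 and 1.92 in wild-type mice and 0.053, 0.26 and -0.19 in null mice. With each mouse left out in turn, the blocked difference stayed between -2.12 and -1.67 for Ccl3 and between -1.99 and -1.61 for Ccl9. Ccl3 was then called in 2 of 6 fits (adjusted p = 0.012 to 0.17) and Ccl9 in 1 of 6 (adjusted p = 0.026 to 0.17).

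For the other chemokines the difference of the responses was not called in either fit. It was -1.13 for Cxcl10 (adjusted p = 0.16 with the block), -0.82 for Ccl4 (adjusted p = 0.26), -0.81 for Ccl22 (adjusted p = 0.24) and -0.64 for Cxcl9 (adjusted p = 0.63). For Xcl1 it was -0.36 (95% interval without the block -1.04 to 0.33, adjusted p = 0.63 with it). For Cxcl16 it was -0.31 (adjusted p = 0.68 with the block), and its second probe set gave -0.72 (adjusted p = 0.41 with the block). A smaller null response was common beyond chemokines: of 1720 probe sets with a mean rise of 1 or more over the genotypes, 81.5% had a difference below 0, with a median of -0.26. The median of the 10 chemokines was -0.73.

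Interferon gamma acts through the receptor chains Ifngr1 and Ifngr2 and the kinases Jak1 and Jak2, and Cxcl9, Cxcl10, Irf1 and Socs1 are among its known targets. Of 7 measured genes of this pathway (8 listed), 4 rose and 3 fell in each genotype. Ifng itself was 5.10, 4.18 and 4.25 without and 10.26, 9.60 and 10.02 with peptide in wild-type mice. In null mice Ifng was 4.71, 5.21 and 4.59 without and 7.87, 9.53 and 7.04 with peptide. It rose by 5.45 and 3.31 (adjusted p = 2.1e-06 and 1.9e-04), and with peptide null Ifng differed from wild type by -1.81 (adjusted p = 0.10).

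With peptide, null mouse 2 was above mouse 1 and mouse 1 above mouse 3 for Ifng and Socs1, as for 6 of the 10 chemokines (Ccl3, Ccl4, Ccl5, Ccl9, Cxcl9 and Cxcl10) and 15.9% of all probe sets. The means of the B cell, granulocyte and salivary gland markers had that order too. So did the NK cell mean, by 6.33 in mouse 1 against 6.31 in mouse 3, though of its genes only Gzma had it. Socs1, the inhibitor of the Jak kinases, was 8.45, 9.23 and 7.95 in those 3 arrays and 9.39, 9.46 and 9.35 in the wild-type arrays with peptide. It rose by 2.63 in wild-type and 2.05 in null cells (adjusted p = 2.1e-06 and 2.6e-05). Irf1, a transcription factor, rose by 1.66 and 1.38. The receptor chains fell in both genotypes, with differences of -1.70 and -1.78 for Ifngr1 and -1.84 and -1.34 for Ifngr2. Jak1 fell too, with -1.26 and -0.99.

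**Figure D4:**
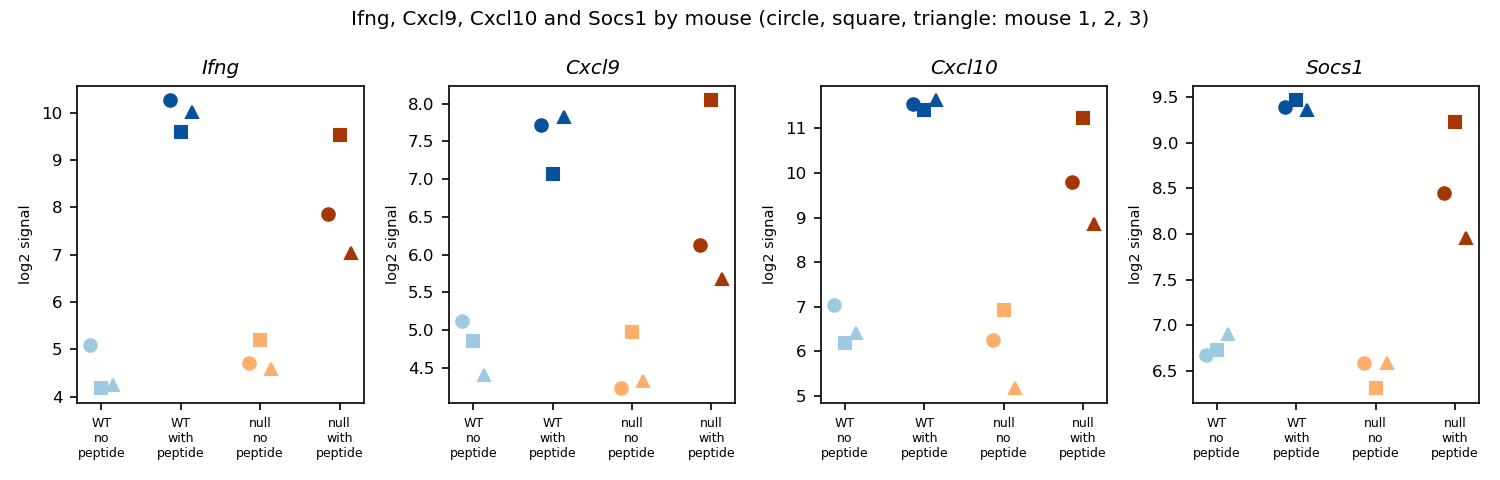
Log2 signals of Ifng, Cxcl9, Cxcl10 and Socs1 on the 12 arrays (vertical axis, a scale of its own in each panel), with a shape for each mouse of a genotype. On null arrays with peptide mouse 2 (square) is the highest and mouse 3 (triangle) the lowest for these 4 genes. Ifng is at 9.53 and 7.04 in these 2 mice. Ccl3, Ccl4, Ccl5 and Ccl9 also had this order, as did 15.9% of all probe sets. The means of the B cell, granulocyte and salivary gland markers had it too.

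Of 28 further chemokine ligands 25 were measured. With peptide wild-type cells had 4 that rose and 1 that fell, where 12.8% and 16.2% of all probe sets did. Null cells had 1 that rose and 0 that fell, and 3 that rose with the replicate block. Between the genotypes 0 passed. Their median differences with peptide were 0.0066 in wild-type and 0.055 in null cells. Cxcl2, a neutrophil chemokine, rose in wild-type cells by 1.55 (SE 0.385, adjusted p = 0.0077), and its null difference was 0.50 (adjusted p = 0.44). Ccl17, which shares the receptor Ccr4 with Ccl22, rose by 1.11 in wild-type (adjusted p = 3.4e-05) and 0.60 in null cells (adjusted p = 0.0050). Cxcl3 rose by 0.73 and Cxcl1 by 0.65 in wild-type cells, and Ccl27a fell by 0.47.

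Of 23 chemokine receptors 21 were measured. In wild-type cells 4 rose and 4 fell, where 12.8% and 16.2% of all probe sets did, and in null cells 2 rose and 3 fell, where 11% and 13.8% did. With the replicate block 3 rose and 6 fell in null cells, Cxcr3, Ccr6, Ccr1 and Ccr10 being added. Among the receptors of the chemokines above, Cxcr3, the receptor of Cxcl9 and Cxcl10, rose in wild-type cells by 1.34 (SE 0.297, adjusted p = 0.0036). Its null difference was 0.80 (adjusted p = 0.072, and 0.0015 with the replicate block). Cxcr6, the receptor of Cxcl16, rose by 1.02 in wild-type and 1.33 in null cells (adjusted p = 8.4e-04 and 1.3e-04). Ccr4, the receptor of Ccl22, rose by 0.51 and 0.49 (adjusted p = 0.025 and 0.036). Xcr1, Ccr8 and Ccr1, the receptors of Xcl1, Ccl1 and Ccl9, had group means between 3.71 and 4.40 and were not called, except Ccr1 with the replicate block in null cells (-0.40, adjusted p = 0.023).

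Cxcr4, Ccr7, Ccr6 and Ccr2 fell in wild-type cells, and the same genes, Ccr6 with the replicate block alone, fell in null cells. Ccr7, which guides T cells into lymph nodes, fell by 1.21 in wild-type and 1.22 in null cells (adjusted p = 4.5e-06 and 6.6e-06). Cxcr4, the receptor of Cxcl12, fell by 1.69 and 1.06 (adjusted p = 7.8e-06 and 5.2e-04), and with peptide it was higher in null cells by 1.06 (SE 0.174, adjusted p = 0.016). Of the 21 receptors, Cxcr4 was the 1 called between the genotypes, and B cells, whose markers were higher on null arrays, carry Cxcr4 too. Their part in that difference was not tested. Ccr2, the receptor of Ccl2, fell by 0.85 and 0.86. Ccr6, the receptor of Ccl20, fell by 0.87 in wild-type cells, and its null difference was -0.64 (adjusted p = 0.14, and 2.7e-04 with the replicate block).

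**Figure D5:**
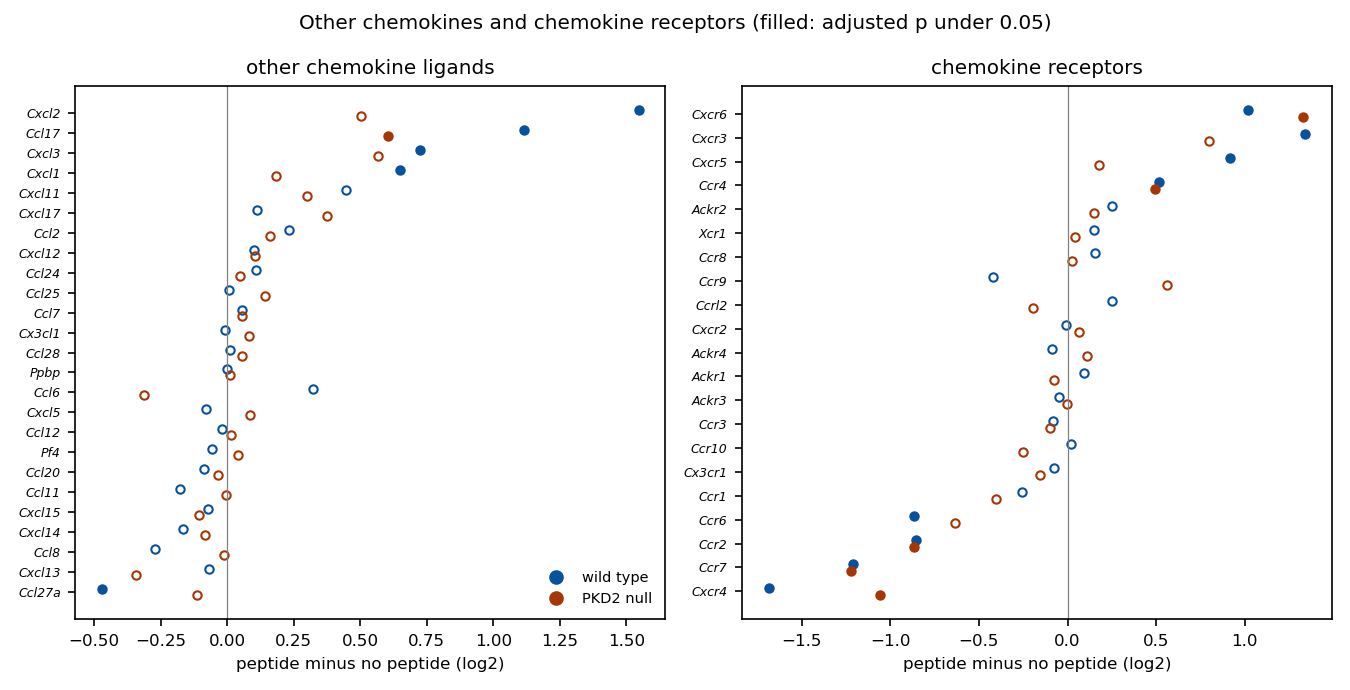
Difference with peptide (log2, horizontal axis) of 25 other chemokine ligands and 21 chemokine receptors in wild-type (blue) and PKD2 null (brown) cells; filled points passed the test. Most points lie near 0, Cxcl2 at 1.55 is the largest ligand difference in wild-type cells, and Cxcr4 at -1.69 and Ccr7 at -1.21 are the largest falls among the receptors there.

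For the 5 chemokines called in both genotypes, the genes with the most similar pattern were found by the root mean square distance over the 12 arrays, after subtracting from each gene its mean in wild-type cells without peptide. Ccl3 was nearest to Ccl4 among the chemokines (0.447) and to Il2 (0.487) and Tnfsf14 (0.668) among other genes. Il2 is the T cell growth factor and Tnfsf14 the cytokine LIGHT. Ccl4 was nearest to Tnfsf14 (0.332), then to Ccl3 (0.447) and Hivep3 (0.469). Cxcl10 was nearest to Ifng (0.536) and Il2ra (0.685), the interleukin 2 receptor alpha chain, and further from the nearest chemokine, Ccl4 (1.32). Cxcl9 was nearest to Gzmb (0.432), which encodes granzyme B, and Gbp6 (0.437), a guanylate-binding protein, with Ccl22 as the nearest chemokine (0.978). Xcl1, which had the largest measured log2 difference of the 10, had no close neighbour by this distance: Crtam lay at 1.89, Il2 at 1.92 and Ccl3 at 2.10. The distance is not scaled by the size of a change, so a gene with a larger rise lies far from genes with smaller rises. Crtam rose by 6.39 in wild-type and 5.72 in null cells. These distances describe the patterns and carry no test.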

How the data were processed

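RNA of the 12 cultures was hybridised to Affymetrix arrays. The log2 signals were deposited by the authors as 1 table of 45101 probe sets and were made with Affymetrix Expression Console 1.1, per the submitters' processing notes. How they were normalized is not stated there, and no further normalization was done. Of the probe sets, 64 controls were left out. Of the other 45037, 34945 had 1 gene symbol, 932 had several and 9160 had none in GEO's platform annotation, and only those with 1 symbol were used as genes. For each gene the probe set of highest mean signal stood for it, and other probe sets of a chemokine served as a check. The chemokine probe sets were 1419412_at (Xcl1), 1421688_a_at (Ccl1), 1419561_at (Ccl3), 1421578_at (Ccl4), 1418126_at (Ccl5), 1417936_at (Ccl9), 1417925_at (Ccl22), 1418652_at (Cxcl9), 1418930_at (Cxcl10) and 1418718_at (Cxcl16).

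The 4 group means were fitted over all 12 arrays in R 4.3.3 with limma 3.58.1 (8 residual and 4.18 prior degrees of freedom), and 5 comparisons were tested two-sided, with Benjamini-Hochberg adjustment over 45037 probe sets. The fit of group means was run on simulated data with independent arrays, without the pairing of mice. The fits with mouse as a block were not simulated. The labels number the animals, which gives the pairing: deviations of the 2 arrays of a mouse from their group means correlated at 0.116 to 0.577, and best with its own mouse in 6 of 6 cases. Mouse entered as a fixed block for peptide effects, and through a duplicate correlation of 0.202 for genotype. Other alternatives were the mean over probe sets, quantile normalization, median centring, a filter on low signals, trended robust moderation, fits of 2 groups alone, and leaving out each array.

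Named are the 10 chemokines, their receptors, up to 6 genes per list called in any comparison by the size of their peptide effects, and, for chemokines called in both genotypes, the nearest chemokine and 2 nearest other genes. Genes next to a chemokine on its chromosome, Cxcl11, Zmynd15, H1f7, Cd44 and Serpinb9 were named after their values were seen. Members and lists were chosen with earlier results of these data known. Motif letters were searched in the promoter table with RefSeq coordinates.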

Additional observations from a re-analysis of the deposited data

Results flagged for a closer look

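Of the chemokines, 2 had peptide responses that differed between wild-type and PKD2 null cells by the test of the difference itself, with mouse as a replicate block. The difference was -1.94 for Ccl3 and -1.78 for Ccl9 on the log2 scale (limma, adjusted p = 0.034 for each). Without the block neither was called (adjusted p = 0.41 and 0.38). With each mouse left out in turn the blocked difference was called in 2 of 6 fits for Ccl3 and in 1 of 6 for Ccl9, and the second Ccl9 probe set was not called with the block (adjusted p = 0.11). Responses of all 3 null mice lay below those of all 3 wild-type mice for both genes, as for 9% of all probe sets. Dixon's test for a single outlying value was not applied to groups of 3.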

How the results depend on the processing

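Of the alternative values, 682 kept their direction and their side of the threshold, 10 passed the threshold where the reported value did not or gave a higher count, 10 did the opposite, and 33 changed sign. All sign changes were in differences that were not called. With mouse as a replicate block, 2 chemokines instead of 0 were called for the difference of the peptide effects, and Ccl5 and Ccl22 were called in null cells with peptide. Other counts of the 10 chemokines did not move by over 1.5 times under the block. Leaving out both arrays of null mouse 2, chosen after seeing the data, gave 5 in place of 2 with peptide between genotypes, by a choice that lowers null values. Leaving out 1 array gave 0 to 4 there. The filter on low signals tested 9 chemokines, without Ccl1, and called 7 in wild-type cells.

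Sign changes without leaving out an array were these. Cxcl16 in wild-type cells was 0.070 with the mean over probe sets, 0.11 with quantile normalization and 0.0012 with median centring. Ccl9 in null cells was -0.0059 with the mean over probe sets and -0.071 without null mouse 2. Ccl5 between genotypes with peptide was 0.0049 with median centring. Without null mouse 2 the genotype differences without peptide were -0.14 for Xcl1, -0.078 for Ccl3 and -0.086 for Ccl5. Leaving out each array in turn gave -0.18 to 0.097 for Cxcl16 in wild-type cells and -0.13 to 0.21 for Ccl9 in null cells. For genotype without peptide it gave -0.14 to 0.34 (Xcl1), -0.047 to 0.097 (Ccl1), -0.20 to 0.47 (Ccl3), -0.43 to 0.085 (Ccl4), -0.086 to 0.47 (Ccl5) and -0.84 to 0.043 (Cxcl10). For genotype with peptide it gave -0.28 to 0.15 (Ccl5) and -0.096 to 0.096 (Cxcl16), and for the difference of the peptide effects -0.48 to 0.073 (Ccl5). The cause was not tested. With 3 arrays a group, small differences were not detectable, and Ccl1 signals below the array medians are read with least certainty.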

Other observations

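Cxcl16 had Zmynd15, the next gene on chromosome 11, as the gene with the most similar pattern over the 12 arrays (root mean square distance 0.0941). H1f7 was nearly as close (0.112). The distance is not scaled by a gene's spread, so genes that change little lie close to each other. Zmynd15 fell by 0.45 in null cells (limma, adjusted p = 0.046) and had a difference of -0.017 in wild-type cells (adjusted p = 0.96), where Cxcl16 had -0.31 and -0.0020. All genes of this paragraph beside the chemokines were picked out after their values were seen. Among chemokines not called in both genotypes, Ccl22 was nearest to Cd44 (0.220), the hyaluronan receptor, and Ccl9 to Serpinb9 (0.285), the inhibitor of granzyme B. Serpinb9 had peptide effects of 1.44 in wild-type and 0.21 in null cells, beside 1.82 and 0.039 for Ccl9.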
